A study of Mus musculus with 12 samples.

Results

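This account follows 7 genes of fat handling in the liver: Pparg, the genes for a pair of uptake receptors (Cd36 and Vldlr), the glyceride-forming enzyme gene Mogat1, the lipolysis inhibitor gene G0s2, and the genes for a pair of lipid droplet coat proteins (Plin4 and Plin5). They were picked by symbol from the 336 gene rows that the authors had selected for a difference between high-fat diet (HFD) and chow, and each of the 7 symbols matched 1 row. One group of mice had eaten HFD and the other regular chow, each for 18 weeks from 6 weeks of age, with 3 mice per group and 1 liver library per mouse. All were PXR-deficient C57BL/6N mice. PXR, the pregnane X receptor, is a nuclear receptor for foreign compounds, and every mouse on either diet lacked it, so no value below bears on mice with the receptor. How the deficiency was made and the sex of the mice are not in the labels. HFD-fed mice of the same genotype that were injected for 4 days, 3 with pregnenolone-16alpha-carbonitrile (PCN, 50 mg/kg) and 3 with vehicle containing 30% DMSO, are in a separate table of 33 rows, which holds 0 of the 7 genes, so their response to injection was not analysed here.

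PPARgamma, the protein of Pparg, is a lipid-sensing nuclear receptor that pairs with RXR on DNA and drives fat storage in adipocytes. It is low in lean mouse liver and is known to be raised in fatty liver, where it turns on uptake and storage genes such as Cd36 and Mogat1. Fat that enters the hepatocyte is esterified to triglyceride and kept in droplets, whose perilipin coats and lipase inhibitors govern how readily it is broken down. In mouse liver Cd36 is also a known target of PXR, and Plin5 and G0s2 are known targets of PPARalpha, the receptor that drives fatty acid oxidation.

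On HFD 6 of the 7 genes were higher and 1, Plin5, was lower. Group means differed by 1.64-fold for Pparg to 5.19-fold for Mogat1 among the higher genes, and Plin5 was 1.85-fold lower. The authors' test called 0.86% of about 24990 genes higher and 0.484% lower, but the 7 genes were taken from among those calls, so nothing can be read from their all being called. Values are normalized counts, that is raw reads per gene divided by the size factor of each library, recovered from the authors' mean column. Since the diet contrast itself chose these genes, their differences are described and not tested.

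The starts of these genes are shown first, because Plin4 and Plin5 are neighbours that moved in opposite directions and Cd36 had the smallest p of the 7 genes in the authors' deposited table. On GRCm38, Plin4 (ENSMUSG00000002831) lies on chromosome 17 from 56100591 to 56109803 and Plin5 (ENSMUSG00000011305) from 56111601 to 56117596, both on the minus strand, with 1797 bases and 0 annotated genes between them. The stretches below are from RefSeq (GRCm38.p6), lie within 250 bases before a RefSeq start site and outside annotated GENCODE exons, and read 5′ to 3′ on the minus strand, with the nuclear receptor core motif AGGTCA, in either orientation, in capitals. The Plin4 stretch is chr17:56109804-56110032, the Plin5 stretch chr17:56117597-56117798 and the Cd36 stretch chr5:17835897-17836146, at a RefSeq start inside the longer GENCODE gene.
Plin4: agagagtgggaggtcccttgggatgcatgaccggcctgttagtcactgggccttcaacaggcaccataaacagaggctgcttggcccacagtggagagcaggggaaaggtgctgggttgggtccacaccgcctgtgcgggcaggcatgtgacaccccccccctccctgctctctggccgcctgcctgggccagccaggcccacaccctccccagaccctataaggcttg
Plin5: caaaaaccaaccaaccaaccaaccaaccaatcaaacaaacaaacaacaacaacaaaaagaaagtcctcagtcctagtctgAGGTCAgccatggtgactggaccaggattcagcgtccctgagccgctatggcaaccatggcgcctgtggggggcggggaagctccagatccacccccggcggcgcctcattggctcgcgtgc
Cd36: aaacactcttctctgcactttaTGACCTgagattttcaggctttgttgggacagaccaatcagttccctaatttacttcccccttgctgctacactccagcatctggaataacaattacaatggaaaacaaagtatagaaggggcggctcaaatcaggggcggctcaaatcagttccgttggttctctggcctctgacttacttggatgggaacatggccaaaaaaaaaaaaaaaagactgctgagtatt

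PPAR-RXR pairs are known to bind a direct repeat of that core with 1 base between (DR1). Neither the exact DR1 (AGGTCA, any base, AGGTCA) nor a looser one with any base at the fourth letter of each core, searched on both strands, occurred in any of the 11 start windows of these 7 genes, each running from 250 bases before to 50 after a RefSeq start. Both are rare in such windows, at 0.0396% and 0.381% of 32817 windows over the genome. The core alone, which the exact DR1 contains, was in 5 of the 11 windows, against 16.3% of all windows: both Plin5 windows, the Cd36 window and 2 of the 3 Pparg windows. Windows of 1 gene are not independent, and windows that share bases are counted apart. Plin4, Mogat1, G0s2 and Vldlr had none. A match here is a run of letters, and sites farther from the start were not searched.

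Pparg itself showed the smallest fold of the 6 higher genes and the tightest HFD group. Its normalized counts were 297, 325 and 331 in HFD mice 659, 669 and 696, against 179.8, 228 and 173 in chow mice 670, 695 and 707. All 3 HFD mice lay above the chow mice, with the lowest HFD mouse, at 297, above the highest chow mouse, at 228. The mean was 318 ± 17.9 on HFD and 194 ± 30.4 on chow (SD, n = 3 each), a coefficient of variation of 5.62% on HFD and 15.7% on chow. The authors' deposited table gave Pparg a log2 fold change of 0.64 (SE 0.17, adjusted p = 0.0203), close to the limit of 0.6 that every row of that table reaches. Pparg (ENSMUSG00000000440) lies on chromosome 6 from 115360951 to 115490399. Its count sums over 7 annotated transcripts, so its receptor forms, which start at different promoters, cannot be told apart.

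Of the uptake genes, Cd36 encodes the fatty acid translocase, a membrane protein that carries long-chain fatty acids into cells. Cd36 had normalized counts of 5333, 3434 and 3748 in HFD mice 659, 669 and 696, against 1109, 2040.0 and 1166 in chow mice 670, 695 and 707. The HFD mice were all above the chow mice, mouse 659 was highest on HFD and mouse 695 on chow, and the gap between the groups was 1.68-fold. Means were 4171 ± 1018 on HFD and 1438 ± 522 on chow (SD, n = 3 each), a 2.90-fold difference. With a log2 fold change of 1.27 (SE 0.22, adjusted p = 2.41e-06) in the authors' deposited table, Cd36 stood 25th by p among the 215 higher rows. Cd36 (ENSMUSG00000002944) lies on chromosome 5 from 17781690 to 17888801. Endothelial cells, macrophages and adipocytes also express Cd36, and in whole liver more cells of a type cannot be told apart from more RNA per cell.

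Vldlr encodes the very low density lipoprotein receptor, which binds triglyceride-rich particles and is normally scarce in liver. Its normalized counts were 317, 136 and 131 in HFD mice 659, 669 and 696, against 47.9, 71.0 and 89.3 in chow mice 670, 695 and 707. The groups did not overlap, but mouse 659 stood 2.42-fold above the lowest HFD mouse, and the HFD coefficient of variation was 54.6%, the widest of the 7 genes. The means were 194.6 ± 106.2 on HFD and 69.4 ± 20.8 on chow (SD, n = 3 each), 2.80-fold apart, and 1.92-fold apart without mouse 659. The authors' deposited table gave a log2 fold change of 1.04 (SE 0.26, adjusted p = 0.0103), and the gene (ENSMUSG00000024924) lies on chromosome 19 from 27216484 to 27254231.

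Mogat1 encodes monoacylglycerol acyltransferase, which joins a fatty acid to monoacylglycerol to make diacylglycerol, the precursor of triglyceride. It had normalized counts of 148, 65.7 and 102.0 in HFD mice 659, 669 and 696, against 28.3, 19.2 and 13.3 in chow mice 670, 695 and 707. The lowest HFD mouse was 2.32-fold above the highest chow mouse, the widest gap of the 7 genes. The raw reads behind these values were few, 61 to 164 on HFD and 11 to 29 on chow. Means were 105.3 ± 41.4 on HFD and 20.3 ± 7.59 on chow (SD, n = 3 each). The deposited log2 fold change in the authors' table, 1.56 (SE 0.27, adjusted p = 3.98e-06), was smaller than the log2 ratio of these means, 2.38. The deposited fold change was the smaller in size for all 7 genes and in 336 of 336 rows, a pattern that shrinkage of the estimates gives, so it is not on the scale of the ratios of means. Mogat1 (ENSMUSG00000012187) lies on chromosome 1 from 78510991 to 78538173, and 200 of its 1558 exonic bases overlap exons of BC035947 on the other strand. Whether counting used strand is not given in the sources used here, so reads from those bases, and from 17 bases of Plin4 that overlap Hdgfl2 on the other strand, cannot be assigned with certainty.

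G0s2 encodes a small protein that binds and inhibits adipose triglyceride lipase, the enzyme of Pnpla2 that begins triglyceride breakdown. Its normalized counts were 3182, 4205 and 2746 in HFD mice 659, 669 and 696, against 1349, 1979 and 1349 in chow mice 670, 695 and 707. Here mouse 669, not 659, was the highest on HFD, and the groups lay 1.39-fold apart at their nearest mice. Means were 3377 ± 749 on HFD and 1559 ± 364 on chow (SD, n = 3 each), 2.17-fold apart. The authors' deposited log2 fold change was 0.97 (SE 0.19, adjusted p = 0.000114). The gene (ENSMUSG00000009633) lies on chromosome 1 from 193272161 to 193273217.

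Plin4 and Plin5 encode perilipins, proteins that coat lipid droplets. Perilipin 4 is abundant in adipocytes and coats small, newly formed droplets, while perilipin 5 is found in oxidative tissues, where it binds the lipase and tethers droplets to mitochondria. For Plin4 the normalized counts were 2341, 1133 and 1859.8 in HFD mice 659, 669 and 696, against 677, 1093 and 873 in chow mice 670, 695 and 707. The groups only just separated, with HFD mouse 669 at 1.04 times chow mouse 695. Means were 1778 ± 608 on HFD and 881 ± 208 on chow (SD, n = 3 each), 2.02-fold apart, and the authors' deposited log2 fold change was 0.83 (SE 0.22, adjusted p = 0.0158).

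Plin5 went the other way. Its normalized counts were 1271, 702 and 749 in HFD mice 659, 669 and 696, against 1328, 2133 and 1579 in chow mice 670, 695 and 707. All HFD mice were below the chow mice, but mouse 659 came within 1.04-fold of chow mouse 670. Means were 907 ± 316 on HFD and 1680 ± 412 on chow (SD, n = 3 each). Plin5 had a log2 fold change of -0.74 (SE 0.22, adjusted p = 0.0424) in the authors' deposited table, the 118th smallest p of the 121 lower rows. On raw counts with no scaling, HFD and chow mice overlapped for Plin4 and for Plin5 and stayed apart for the other 5 genes. How many of all rows stayed apart on raw counts was not computed.

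**Figure D1:**
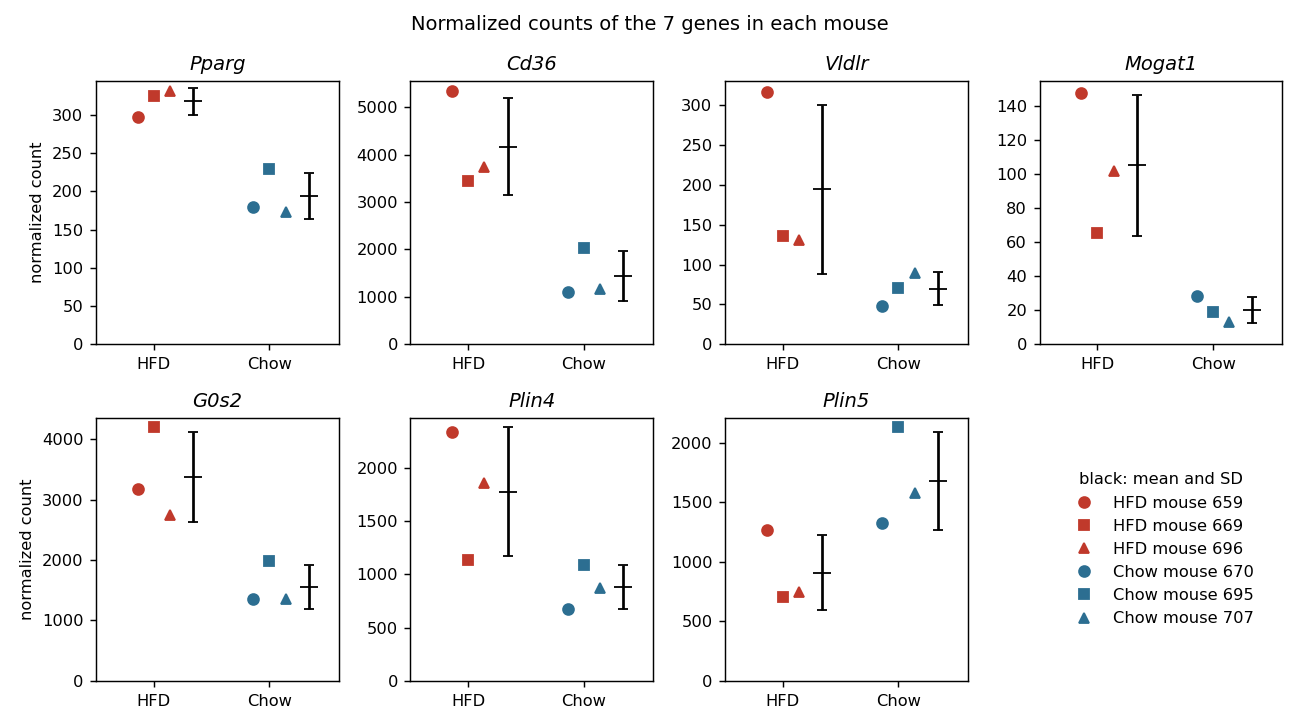
Normalized counts (y axes, each from 0) of the 7 genes in each HFD mouse (red, left) and each chow mouse (blue, right), with the mean and SD of 3 mice in black. Cd36 and Mogat1 stand well apart between diets, Plin4 and Plin5 meet at their nearest mice (1133 against 1093, and 1271 against 1328), and Plin5 is the gene that is lower on HFD.

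Counts of genes from the same library can be compared with no size factor, so ratios within a mouse are free of the scaling. The ratio of Plin4 to Plin5 raw counts was 1.84, 1.62 and 2.48 in HFD mice 659, 669 and 696, against 0.510, 0.513 and 0.553 in chow mice 670, 695 and 707. The chow mice agreed closely, at 0.525 ± 0.0240 (SD, n = 3), although their raw counts varied 1.64-fold for Plin4 and 1.70-fold for Plin5, and the HFD mice averaged 1.98 ± 0.450 (SD, n = 3), 3.77-fold higher. Plin4 had fewer reads than Plin5 in every chow mouse and more in every HFD mouse. Plin4 has 5777 exonic bases and Plin5 2087, so the order of their reads is not the order of their levels. Per kilobase of exon, mean Plin5 was above mean Plin4 on both diets (435 against 308 on HFD, 805 against 152.5 on chow). By normalized counts, Plin4 and Plin5 also ranked the mice of each diet in the same order, with mouse 659 highest and mouse 669 lowest on HFD, and mouse 695 highest and mouse 670 lowest on chow.

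Cd36 to Plin5 gave the largest diet difference of the 11 ratios computed (5.57-fold by the mean ratio), at 4.19, 4.89 and 5.002 in HFD mice 659, 669 and 696, against 0.835, 0.956 and 0.739 in chow mice 670, 695 and 707. Those 11 were a choice of pairs. Mogat1, which rose most, was not set against Plin5, so Cd36 and Plin5 need not be the most divergent pair. G0s2 to Plin5 ran from 2.50 to 5.99 on HFD and from 0.855 to 1.02 on chow. Cd36 to Plin4, both higher on HFD, averaged 2.44 ± 0.526 on HFD and 1.61 ± 0.266 on chow (SD, n = 3 each), still without overlap. Relative to Pparg, Cd36 and Mogat1 were higher in every HFD mouse than in any chow mouse (1.82-fold and 3.17-fold by the mean ratio), Plin5 was lower in every one, and the HFD and chow ranges of Plin4, G0s2 and Vldlr overlapped. These ratios come from the same diet contrast and are a description.

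**Figure D2:**
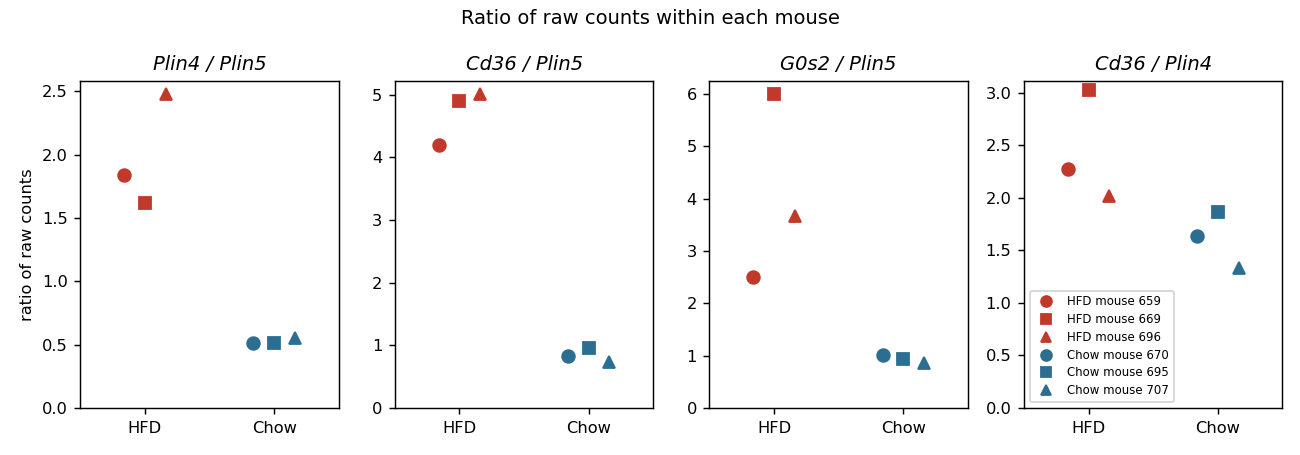
Ratios of raw counts within each mouse (y axes from 0, no scaling), HFD mice in red on the left and chow mice in blue on the right. The Plin4 to Plin5 ratio is 1.62 to 2.48 on HFD and 0.510 to 0.553 on chow, and Cd36 to Plin5 is 4.19 to 5.002 on HFD and 0.739 to 0.956 on chow.

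Per kilobase of exon, which allows levels of different genes to be compared, G0s2 was the most abundant of the 7 genes on either diet, at 3878 ± 860 normalized counts per kilobase on HFD and 1790 ± 418 on chow (SD, n = 3 each). On HFD the order below it was Cd36 (1162), Plin5 (435), Plin4 (308), Pparg (107.6), Mogat1 (67.6) and Vldlr (19.3), in mean normalized counts per kilobase. On chow it was Plin5 (805), Cd36 (401), Plin4 (152.5), Pparg (65.6), Mogat1 (13.0) and Vldlr (6.89). Plin5 thus stood second on chow and the third on HFD, below Cd36. Neighbours in these orders did not overlap between mice, except Plin5 and Plin4 on HFD and Mogat1 and Vldlr on chow. Lengths are the union of GENCODE M21 exons, 871 bases for G0s2 and 10068 for Vldlr, and a liver that uses shorter transcripts would have higher levels than these.

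Mice of 1 diet differed from each other in ways that several of the genes shared. HFD mouse 659 was the highest of its group for Cd36, Vldlr, Mogat1, Plin4 and Plin5, and the lowest for Pparg. Chow mouse 695 was the highest of its group for Pparg, Cd36, G0s2, Plin4 and Plin5. Plin5, lower on HFD as a group, therefore shared its highest mouse with Cd36 and Plin4 within each diet. Across the whole table mouse 659 was the highest HFD mouse in 44.7% of the 215 higher rows and 56.2% of the 121 lower rows, and mouse 695 was the highest chow mouse in 43.3% and 28.1%. Within HFD, mouse 659 had the lowest Pparg (297) and the highest Cd36 (5333), but HFD mice spanned only 1.11-fold for Pparg. Their order for Pparg is therefore not well resolved. On chow, mouse 695 was highest for both genes. Whether Pparg and Cd36 vary together between mice was not tested.

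**Figure D3:**
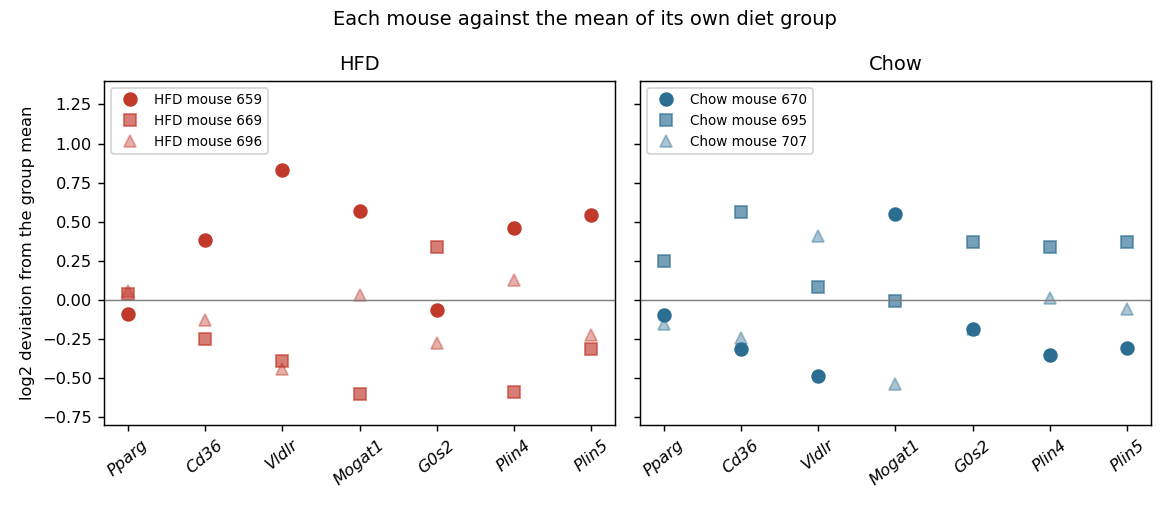
Log2 normalized count of each mouse minus the mean of its own diet group (y axis), for each gene (x axis), with HFD on the left and chow on the right. HFD mouse 659 lies above 0 for 5 of the 7 genes, and chow mouse 695 is the highest of its group for 5.

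Some markers of other liver cells were listed, and all of those were higher on HFD. Of 14 macrophage and Kupffer cell markers 2 were among the rows, Itgax and Mmp12, and their summed normalized count was 119, 77.5 and 71.2 in HFD mice 659, 669 and 696, against 12.5 to 25.3 in chow mice. Of 10 stellate cell and fibroblast markers 3 were listed, the collagen genes Col1a1, Col1a2 and Col3a1, with sums of 2847, 2069 and 1363 in HFD mice 659, 669 and 696, against 424 to 470.0 in chow mice. Mouse 659 had the highest sum of both lists, as it had the highest Cd36, Vldlr, Mogat1, Plin4 and Plin5. The 2 macrophage markers did not share an order, with Itgax at 37.1, 30.1 and 46.6 in HFD mice 659, 669 and 696. Mmp12 was at 82.2, 47.4 and 24.6 in the same mice. The part of these cells in the differences of the 7 genes was not tested. The hepatocyte (10 genes), adipocyte (10), endothelial (10), cholangiocyte (6), lymphocyte (9) and muscle (7) lists had 0 members among the rows, so neither the tissue label nor a share of adipose tissue was checked with them.

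The rows most like each gene over the 6 mice were found by the root mean square difference of log2 profiles, each centred on its own mean, among 304 other named rows. All rows were selected on the same diet contrast, so some likeness is built in. Neighbours were also picked for likeness over these same mice, so a shared order of mice follows from the rule. Closest to Pparg was Ces2g, a carboxylesterase gene, at a difference of 0.03 log2 units, with normalized counts of 528, 589 and 626 in HFD mice 659, 669 and 696, against 334, 430.1 and 316 in chow mice 670, 695 and 707. Next was Lect2, a hepatokine gene, at 0.07. Both, like Pparg, were lowest in mouse 659 on HFD and highest in mouse 695 on chow. G0s2 was closest to Prnp (0.05), the prion protein gene, and to the activin subunit gene Inhbe (0.09). Prnp had 542, 735 and 499.5 in HFD mice 659, 669 and 696, against 251.1, 370 and 255 in chow mice 670, 695 and 707, with mouse 669 highest as for G0s2.

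Other genes had looser neighbours. Plin4 was nearest to Zbed5 (0.17) and to Fasn, which encodes fatty acid synthase (0.18). Fasn had 10191, 5351 and 7232 normalized counts in HFD mice 659, 669 and 696, against 3751, 4818 and 3362 in chow mice 670, 695 and 707. Cd36 was nearest to Pnldc1 (0.17) and the matrix gene Tnc (0.20), Vldlr to the stress-induced cytokine gene Gdf15 (0.25) and Col6a1 (0.30), and Mogat1 to the annexin gene Anxa2 (0.22) and Thbs1 (0.39). Plin5 was nearest to the manganese exporter gene Slc30a10 (0.15) and Fbxo30 (0.18). Within the set, the most alike were Pparg and G0s2 (0.28), and the least alike were Mogat1 and Plin5 (1.67).

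Other genes of the same pathways gave few further rows. Of 22 PPARgamma targets and steatosis genes 7 were listed, all higher, but 6 of them are among the 7 genes described, and the other was the desaturase gene Scd1, at 492906 ± 72892 on HFD and 300480 ± 19479 on chow (SD, n = 3 each). The median log2 ratio of those 7 was 1.11, against 1.21 over all 215 higher rows. Apart from Cd36 and Vldlr, 0 of 29 uptake genes were listed, and apart from Plin4 and Plin5, 0 of 15 droplet coat and growth genes. Of 18 triglyceride assembly genes besides Mogat1 only Agpat1 was listed. It encodes an acyltransferase that makes phosphatidic acid and had 123, 143 and 148 normalized counts in HFD mice 659, 669 and 696, against 74.3, 73.9 and 71.2 in chow mice 670, 695 and 707. Besides G0s2 and Plin5, 0 of 14 lipolysis genes were listed, and besides Pparg, 0 of 22 PPAR partners and coregulators. Genes that are not among the rows were not analysed here, so a count of 0 does not show that they were alike on both diets.

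Plin5 stands on the list of 34 PPARalpha targets and oxidation genes, of which 6 were listed, all 6 lower. That list is not a full set of PPARalpha targets, so the share that was lower depends on which genes it holds. It leaves out G0s2, named above as a target of the same receptor, which was higher on HFD. Besides Plin5, the 5 lower genes on the list were Ehhadh, Cyp4a14, Cyp4a31, Cyp4a12a and Acot1. They ran from 2.04-fold lower (Acot1) to 4.30-fold lower (Ehhadh), and all 5 fell further than Plin5. The median log2 ratio of the 6, without G0s2, was -1.61, against -0.99 over all 121 lower rows. Since targets such as G0s2 are left out, that median does not stand for PPARalpha targets as a group. Over all genes the authors tested, 0.484% were called lower. Plin5 did not share their order among HFD and chow mice throughout. Acot1, an acyl-CoA thioesterase gene, was highest in mouse 695 on chow, as Plin5 was, whereas Ehhadh, a peroxisomal oxidation gene, was lowest there, at 15464 against 44152 and 24086 in mice 670 and 707. The 24 fatty acid synthesis genes had 6 higher rows, Srebf1, Thrsp, Pklr, Fasn, Elovl6 and Scd1, and 1 lower, Elovl2. These lists were chosen with results of the data known, and their counts are a description.

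**Figure D4:**
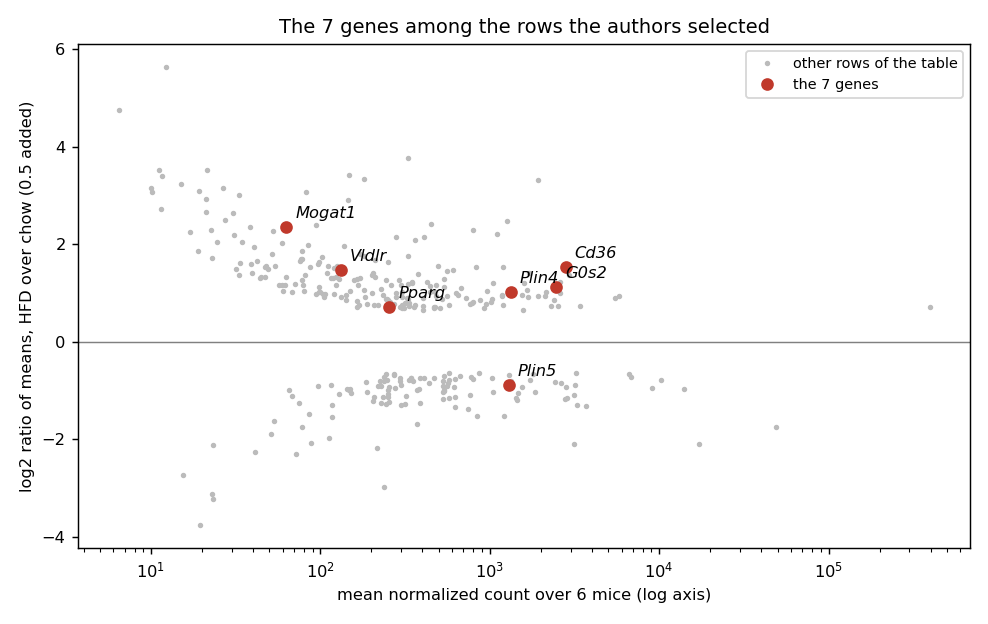
Log2 ratio of group means, HFD over chow with 0.5 added to each mean (y axis), against the mean normalized count over 6 mice (x axis, log scale) for the 336 listed rows, with the 7 genes in red. Mogat1 is the highest of the 7 genes and has the fewest counts, Pparg lies at the lower edge of the higher rows, and Plin5 is among the lower rows.

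The calls of the 7 genes depend on the test and on the scaling. edgeR's quasi-likelihood test, with the recovered size factors, was fitted only to the 331 listed rows that passed a filter on low counts. Its p-values were adjusted for about 24990 genes, the number the authors tested, though no unlisted gene was fitted. It called 8 rows higher and 1 lower (0.032% and 0.004% of that number), and 0 of the 7 genes. Its adjusted p ran from 0.139 for Mogat1 to 0.801 for Plin5. Unadjusted, all 7 were under 0.05, but so were all 331 rows fitted (212 higher and 119 lower). That count therefore says nothing of the 7 genes in particular. With TMM over the listed rows, adjusted over those rows, edgeR called Mogat1, Cd36 and Plin5, among 66 higher (20.0%) and 119 lower (36.1%) of the 330 rows fitted. DESeq2 refitted to the listed rows and adjusted over all genes tested called Plin5, among 15 higher (4.46%) and 121 lower (36.0%) of 336 rows. Since it called every lower row, that call says nothing of Plin5 in particular. The 7 genes did not overlap between diets on the authors' scaling, as was so for 99.4% of all rows, which had been selected on that grouping. Leaving out each mouse in turn kept every direction, with the log2 ratio between 2.05 and 2.70 for Mogat1 and between -1.21 and -0.68 for Plin5.

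**Figure D5:**
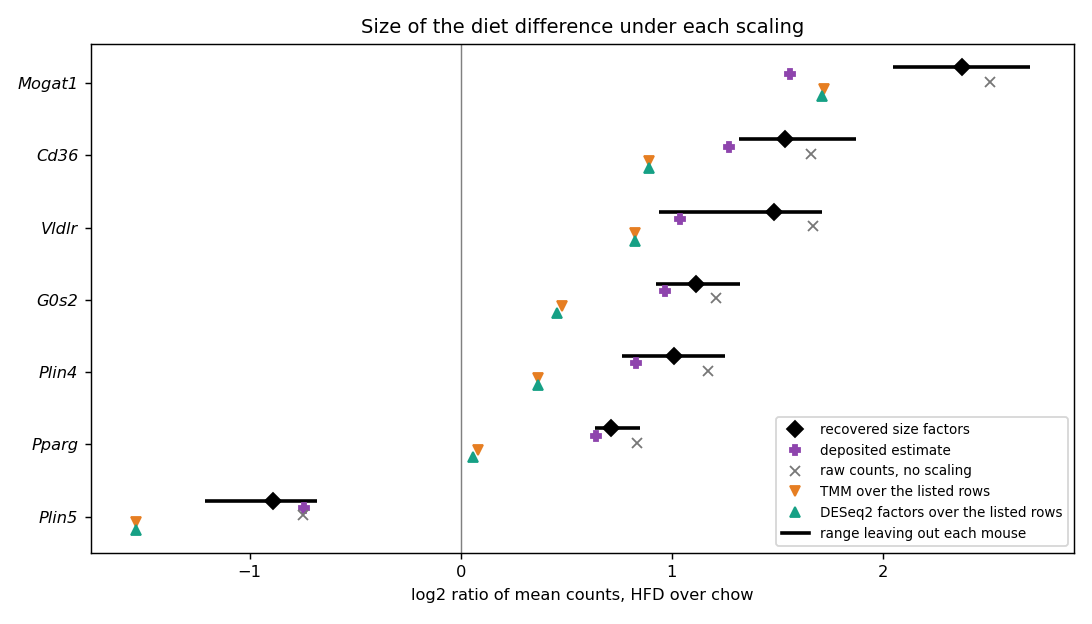
Log2 ratio of mean counts, HFD over chow (x axis), for each gene (rows) with the recovered size factors (black diamonds, with bars for the range leaving out each mouse), the deposited estimate, raw counts and the 2 scalings over the listed rows. No gene changes sign, and Pparg comes nearest to 0, at 0.060 with DESeq2's size factors. The 2 scalings over the listed rows take most rows as unchanged, though all were selected for having changed. TMM moves the median log2 ratio of all rows by -0.64 and DESeq2's size factors by -0.66.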

How the data were processed

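Liver RNA-seq of 3 HFD-fed and 3 chow-fed mice was used. Per the file headers the authors deposited raw read counts per gene and mouse, beside their own summary per gene: mean, log2 fold change with standard error, and raw and adjusted p-value. The submitters' processing notes name HISAT2, HTSeq and DESeq2 and the builds GRCm38 and mm10, without versions; the strand setting is not given. The diet table holds 336 rows, none with a deposited log2 fold change under 0.6 in size or an adjusted p over 0.0474. Total depth is therefore unknown, and counts summed over the rows ran from 547431 to 920106 per mouse.

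Size factors (0.829 to 1.14) were solved from the authors' mean column, with a largest gap of 0.0051 counts. The number of genes tested, about 24990, was taken as the value at which p and adjusted p gave a whole rank, within rounding, for the most rows (301). Models used edgeR 4.0.16 and DESeq2 1.42.0 in R 4.3.3. Only edgeR with the recovered size factors, without a filter on low counts, was tested on simulated data. The TMM and DESeq2 fits were not. Profiles used a pseudocount of 1 and rows with a mean of at least 10. For 7 of 7 genes the files' coordinates matched GENCODE M21; starts are given 1-based. P-values cover the spread between these mice. The genes, lists and rule for neighbours were chosen with earlier results of these data known. The authors' calls are the base, and the edgeR and DESeq2 refits on diet were planned as alternatives that show how the calls depend on the test, not as evidence for the genes.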

Additional observations from a re-analysis of the deposited data

How the results depend on the processing

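Of the 7 genes, the authors' test called 6 higher and 1 lower. At an adjusted p under 0.01, at a deposited log2 fold change of 1 or more in size, and with Bonferroni adjustment, the counts were 3 higher and 0 lower each. Deposited fold changes are smaller than the ratios of means. G0s2 and Plin4 missed that limit on the deposited scale (0.97 and 0.83). Their log2 ratios of means with the recovered size factors, 1.11 and 1.01, were above it. Both ratios were under 1 with TMM or DESeq2's size factors over the listed rows. edgeR with the recovered size factors gave 0 and 0, with or without a filter on low counts and without each mouse in turn (0 to 0 in both directions). Unadjusted, 6 and 1 were under 0.05 each time, as were all or nearly all rows fitted. edgeR with TMM gave 2 and 1 (66 and 119 over the 330 rows fitted), and DESeq2 refitted to the listed rows gave 0 and 1 (15 and 121 over 336 rows), so nearly all lower rows were called under both.

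TMM over rows selected for having changed moved the median log2 ratio of all rows by -0.64 and DESeq2's size factors moved it by -0.66, while raw counts moved it by 0.13. Both TMM and DESeq2's size factors take most rows as unchanged, which rows selected for having changed do not meet. A ratio near 0 under them therefore does not show that a gene was alike on both diets. With TMM the log2 ratios were 0.081 for Pparg, 0.89 for Cd36, 0.83 for Vldlr, 1.72 for Mogat1, 0.48 for G0s2, 0.37 for Plin4 and -1.54 for Plin5. With DESeq2's size factors they were 0.060, 0.89, 0.83, 1.71, 0.46, 0.37 and -1.54 in the same order. The deposited estimate for Mogat1 was 1.56. No direction reversed under these settings, raw counts, geometric means, the edgeR estimate or the loss of any mouse. The groups stayed apart for 3 of the 7 genes (Cd36, Mogat1 and Plin5) with TMM and for 3 with DESeq2's size factors, and for 5 on raw counts, alternatives added after seeing the data. The share of all rows that stayed apart was not computed for these alternatives, so these counts say nothing of the 7 genes in particular.

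Leaving out each mouse gave log2 ratios of 0.64 to 0.85 for Pparg, 1.32 to 1.87 for Cd36, 0.94 to 1.71 for Vldlr, 2.05 to 2.70 for Mogat1, 0.93 to 1.32 for G0s2, 0.76 to 1.25 for Plin4 and -1.21 to -0.68 for Plin5. No paired analysis was possible because the diet groups share no mouse number. With 3 mice a group, a permutation test of 1 gene cannot give a p under 0.1, and none was run.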
